A study of Mus musculus with 6 samples.

Results

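The 10 genes described here are Peg3 and its domain neighbors Usp29 and Zim1, together with Igf2, H19, Cdkn1c, Grb10, Plagl1, Mest and Ndn. They were taken by symbol from 24422 gene rows of raw RNA-seq counts, and all 10 had a row and passed the filter on low counts. The kidneys came from wild type C57BL/6 pups at postnatal day 15. Dams of the iron-deficient group (FeD) received a synthetic diet with 2 to 6 ppm iron from 8 weeks of age, and dams of the control group received 220 ppm iron. Each diet was kept up before mating with C57BL/6 males, through pregnancy and until the pups were collected. Each group had 3 kidneys, each sequenced as a separate polyadenylated RNA library. The labels give neither litters nor sexes, so a difference between litters cannot be told apart from the diet, and p-values measure the spread between these kidneys.

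Genomic imprinting silences the copy of a gene from either the mother or the father, through DNA methylation laid down in the germ line. Many imprinted genes act on fetal and early postnatal growth, and paternally expressed genes tend to promote growth whereas maternally expressed genes tend to restrain it. In mouse tissues, expression of a network of these genes, Peg3, Igf2, H19, Cdkn1c, Grb10, Plagl1, Mest and Ndn among them, is known to decline together after birth. Peg3 encodes a large zinc finger protein made from the paternal copy. Because both parents of these pups were C57BL/6, the counts hold no information on which parental copy was transcribed.

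Peg3, Usp29 and Zim1 were all several-fold higher in FeD kidneys, whereas the other members differed less and in both directions. Igf2, Grb10 and Plagl1 had higher means in FeD, Cdkn1c and Mest had lower means, and H19 and Ndn overlapped between the groups. The 10 genes were picked from this same comparison, with the rise of Peg3 known, so their values are given as a description, and no p-value is printed for any of them. By the edgeR quasi-likelihood test with a Benjamini-Hochberg adjusted p under 0.05 and at least a 2-fold difference, 3 of the 10 were called, against 10% of 15145 tested genes. All 3 were higher in FeD, a direction in which 4.34% of the tested genes were called, and none of the 10 was called lower, against 5.69%. With the adjusted p alone, 8 of the 10 passed, against 45.7% of the tested genes. Of these, 6 were higher and 2 were lower, against 22.4% and 23.3%. Igf2 and Mest passed in 7 of the 13 alternative settings described below, and the other 6 passed in every setting that tested them. The 3 FeD kidneys lay wholly above or wholly below the 3 control kidneys for 8 of the 10, and for 58.1% of the tested genes.

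Total counts ranged from 13732173 to 20853293 per kidney, and a floor of 3 counts corresponded to 0.144 to 0.218 CPM, the count scaled to library size. Values below are normalized counts, that is, counts scaled to a common library size, unless another scale is named. Markers of the labelled tissue were high in every kidney, with at least 13453 normalized counts of the proximal tubule phosphate transporter Slc34a1 and at least 30321 of Umod, the uromodulin of the thick ascending limb. FeD kidney 2 also held adrenal transcripts. The summed level of 9 adrenal cortex markers was 14598 in FeD kidney 2, 1459 in control kidney 1 and 216.2 to 295.9 in the other kidneys. In FeD kidney 2 the medulla enzyme Th stood at 1431, and in the other kidneys at 0.890 to 3.83. The cortex enzyme Cyp11b1 had 2374 normalized counts there and at most 5.18 in the others. Control kidney 1 was high in the steroid enzyme Hsd3b1 (989 normalized counts) and in Cyp11a1 and Nr5a1 (123 each). It had 0 of Cyp11b1 and 4.79 of Cyp21a1, so its sum does not show adrenal tissue, and the source was not tested. Each member is therefore also given without FeD kidney 2, and without both kidneys that stood high in cortex markers. Cell type markers also differed between the diets. Summed normalized counts were lower in FeD for 6 endothelial markers (17297 to 17748 in control, 11037 to 14515 in FeD), 10 stromal markers (48225 to 50546, against 32871 to 43818) and 5 nephron progenitor markers (443.8 to 500 in control, 265 to 368.7 in FeD). These sums rest on abundant genes, and single markers went both ways in the edgeR test. Of the 10 stromal markers, 4 rose, Pdgfra and Pdgfrb among them, and 4 fell, Col1a1 and Col3a1 among them. Of the progenitor markers Meox1 fell from 327 to 164 and Eya1 rose from 12.8 to 49.3. Of the 6 endothelial markers, 5 fell and 0 rose. Among all tested genes, 22.4% rose and 23.3% fell at an adjusted p under 0.05. The part of these markers in the values below was not tested, and in whole kidneys fewer cells of a type and less RNA per cell cannot be told apart. High Xist, the X inactivation RNA, was found in control kidneys 1 and 2 and FeD kidney 3, and high Ddx3y, from the Y chromosome, in the other 3, so both groups mixed the sexes.

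Peg3 lies on the minus strand of chromosome 7 in the mm9 build (chr7:6656603-6683132), with Zim1 beyond its 3′ end on the same strand (chr7:6628154-6649161) and Usp29 on the opposite strand (chr7:6913871-6916480). Only a single exon of Usp29 is annotated there, so its start stands 230739 bases from that of Peg3. RefSeq, however, places the promoters of Peg3 and Usp29 head to head, and their 300-base windows in the GRCm38.p6 promoter table share 263 bases. The Zim1 promoter is shown with the 96 of these bases that lie between the RefSeq bounds of Peg3 and Usp29, because they lie before the genes with the highest fold changes of the domain. The stretches were located in mm9 by exact match, hold no annotated exon bases and are written 5′ to 3′ on the minus strand. Capitals mark CCAAT boxes, which read ATTGG on this strand.

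Peg3 and Usp29 intergenic stretch, chr7:6683174-6683269: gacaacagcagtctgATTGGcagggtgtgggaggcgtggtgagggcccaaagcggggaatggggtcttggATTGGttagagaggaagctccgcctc
Zim1 promoter, chr7:6649252-6649393: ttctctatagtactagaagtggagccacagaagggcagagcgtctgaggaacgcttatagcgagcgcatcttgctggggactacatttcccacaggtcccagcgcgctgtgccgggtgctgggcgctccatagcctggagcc

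The stretch of 96 bases holds 2 CCAAT boxes and 3 CpG sites, and the Zim1 stretch of 142 bases holds 0 CCAAT boxes and 8 CpG sites. On either strand, CCAAT was found in 37.4% of 32851 RefSeq promoter windows, so its presence does not set this promoter apart. The windows of Peg3 and Usp29 also each contain TGACGTCA, the cyclic AMP response element, found in 1.79% of all windows, and GGGGCCCC, a core recognized by the PLAGL1 zinc finger protein, found in 1.08%. Each has 1 occurrence, at the same position in the 263 bases that both windows share and outside the 96 bases printed. The GC box GGGCGG, the hypoxia response core ACGTG and the YY1 motif GCCATNTT were also searched and had 0 matches in either window. Matches of letters give no evidence of binding in these kidneys.

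Peg3, whose protein acts in growth, maternal behavior and cell survival pathways, had 1080.3, 1074 and 1163 normalized counts in the 3 control kidneys and 7638, 10727 and 11097 in the 3 FeD kidneys. Every FeD kidney stood far above every control kidney, and the FeD kidneys were also more spread out. The means were 1106 ± 49.5 (SD, n = 3) and 9821 ± 1900 (SD, n = 3), an 8.88-fold difference or a log2 fold change of 3.15 (SE 0.15). Peg3 ranked 35 by fold change among the 12933 genes that averaged 50 or more normalized counts. FeD kidney 2 did not carry the difference, as its log2 fold change was 3.10 without that kidney and 3.08 without either kidney high in cortex markers. Leaving out each kidney in turn gave 3.06 to 3.32.

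Zim1 is a zinc finger gene of the same domain that is expressed from the maternal copy, opposite to Peg3. Control kidneys had 160.1, 190.3 and 182 normalized counts, and FeD kidneys had 1023, 1648 and 1741. As for Peg3, FeD kidney 1 was the lowest of the FeD kidneys and still several-fold above the controls. The means were 178 ± 15.7 and 1471 ± 391 (SD, n = 3 each), an 8.28-fold difference, with a log2 fold change of 3.05 (SE 0.21) and a range of 2.92 to 3.27 on leaving out each kidney. Without FeD kidney 2 it was 2.98, and Zim1 ranked 40 by fold among the same 12933 genes.

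The oppositely imprinted Peg3 and Zim1 kept a similar proportion in every kidney. The ratio of Peg3 to Zim1 raw counts was 6.75, 5.65 and 6.38 in control kidneys and 7.47, 6.51 and 6.37 in FeD kidneys, so the groups overlapped. On log2 CPM, the Pearson correlation of Zim1 with Peg3 over the 6 kidneys was 0.997, and 16 genes had a higher correlation with Peg3. These correlations are descriptions over kidneys of both diets and mostly reflect the gap between the groups.

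Usp29, a paternally expressed ubiquitin-specific protease transcribed away from Peg3, was barely detected in control kidneys. Its raw counts were 3, 1 and 0 in control kidneys and 13, 12 and 20 in FeD kidneys. The control kidneys were at or under the floor of 3 counts, and no FeD kidney was. Summed over the group, 45 counts in FeD against 4 in control gave a depth-adjusted ratio of 11.8 (95% exact interval 4.30 to 45.2, counting error only). The fitted log2 fold change was 3.43 (SE 0.64) and moved from 2.83 to 4.63 with the kidney left out, control kidney 3 giving the lowest and control kidney 1 the highest value.

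**Figure D1:**
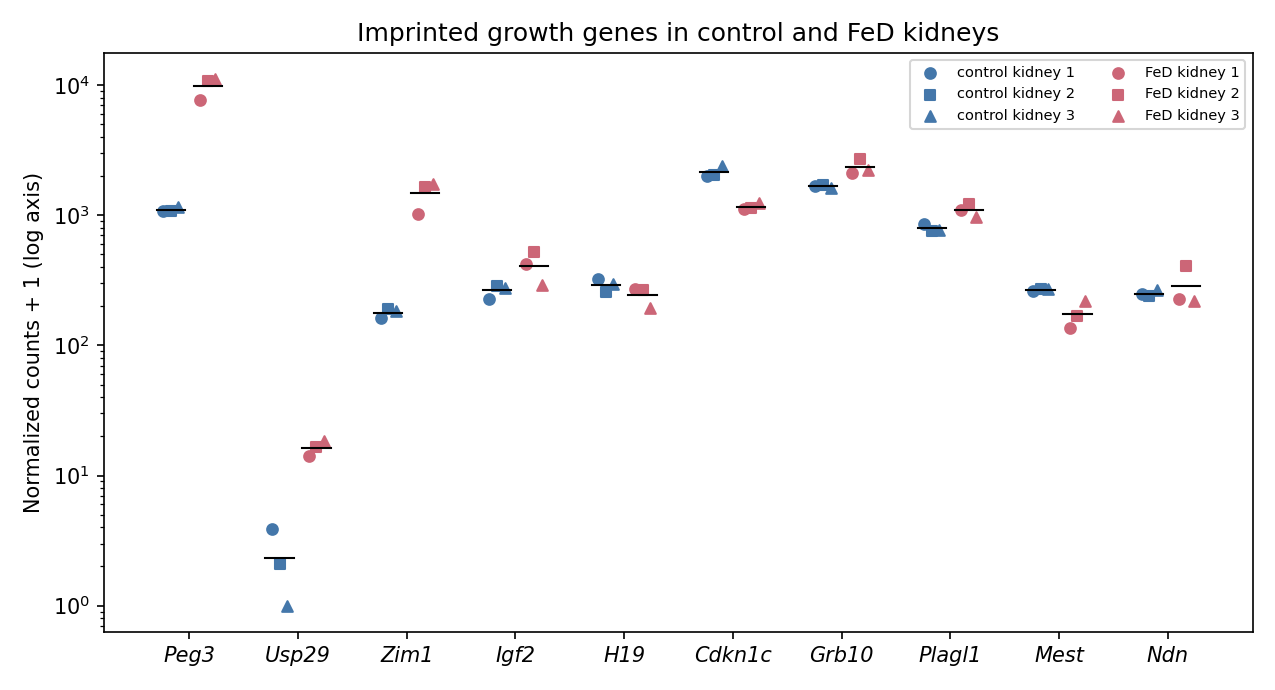
Normalized counts plus 1 of the 10 members in each of the 6 kidneys on a log axis, with a point for each kidney and a line at each group mean. The FeD kidneys of Peg3 lie between 7638 and 11097, all above the control kidneys at 1074 to 1163, while H19 and Ndn overlap.

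The tested genes farther out gave a contrast to these 3 genes. Within 500000 bases of the start of Peg3, 19 other genes were counted and 8 were abundant enough to test, all of them named as zinc finger genes. The nearest on either side were Zfp28, at -347052 bases from that start, and Zfp954, at 391031 bases. Apart from the members, the genes counted between them, most of them Olfr genes, were too low to test. The groups did not overlap for 3 of the 8, against 58.1% of all tested genes. By the edgeR quasi-likelihood test with Benjamini-Hochberg adjustment, none of the 8 passed, against 45.7% of all tested genes. Of the 8, 0 had an unadjusted p under 0.05, and DESeq2 called 0. Their log2 fold changes ran from -0.96 for Zfp773 (SE 0.48, adjusted p = 0.13) to 0.19 for Zfp954 (SE 0.09, adjusted p = 0.12), with a median of -0.12. Zfp28 had 148 ± 5.86 normalized counts in FeD and 175 ± 4.99 in control (SD, n = 3 each), a log2 fold change of -0.24 with an adjusted p of 0.11. Zfp667 (0.15), Zfp583 (-0.62), Zfp78 (-0.26), Zfp418 (0.04) and Zfp772 (0.01) made up the rest on the log2 scale. Of the imprinted genes of the domain outside the members, Zim2 and Zim3 had 0 counts in all 6 kidneys, and Zfp264 had no row under that symbol. Imprinted Snrpn and 4 hemoglobin genes also had 0 counts in every kidney, so 0 counts here do not show that a gene is silent. Zinc finger genes can share sequence, and how reads matching several genes were handled is not given in the sources used here.

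**Figure D2:**
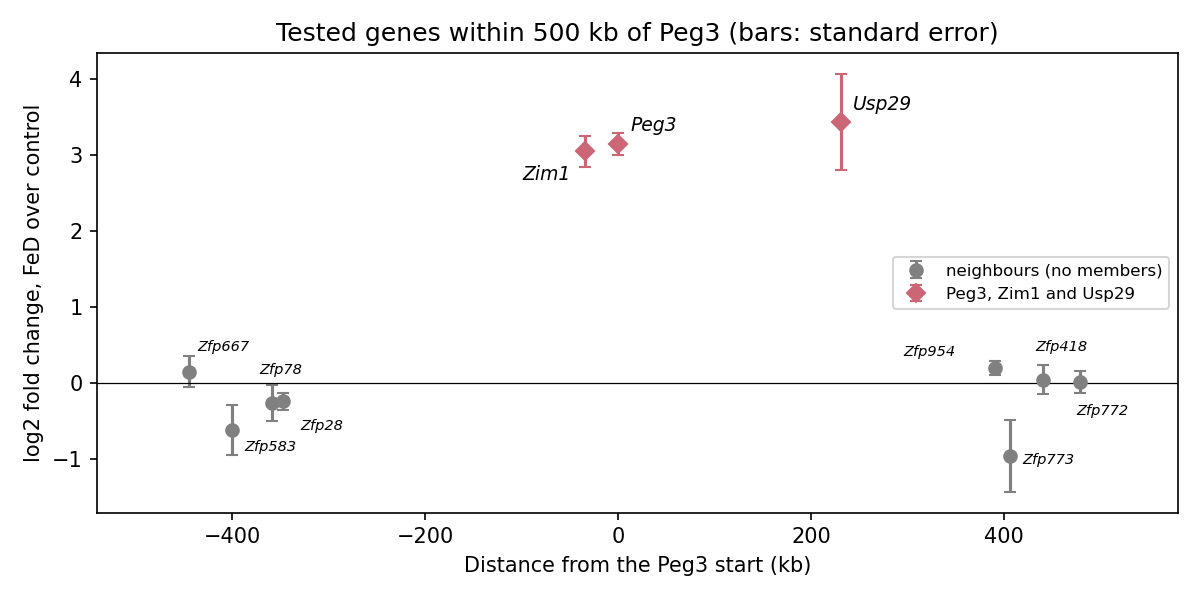
Log2 fold change, FeD over control, with its standard error for tested genes against distance in kilobases from the start of Peg3. Peg3, Zim1 and Usp29 stand between 3.05 and 3.43, and the 8 other genes lie between -0.96 and 0.19.

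Igf2 and H19 form a neighboring pair on chromosome 7 under a shared imprinting control region. Igf2 (chr7:149836673-149852721, minus strand) encodes the paternally expressed fetal growth factor IGF2, and H19 (chr7:149761434-149764048, minus strand) is a maternally expressed noncoding RNA. Igf2 had 226, 288 and 278 normalized counts in control kidneys and 419, 517 and 288 in FeD kidneys. FeD kidney 3 stood at 288.3 and the highest control kidney at 287.6, so the groups were separated by less than a count. The means were 264 ± 32.9 and 408 ± 115 (SD, n = 3 each), a log2 fold change of 0.62 (SE 0.20) or a 1.54-fold difference. Without FeD kidney 2 it was 0.44, and without both kidneys high in cortex markers it was 0.33. Of Igf2's exon bases, 1.78% overlap the antisense Igf2as.

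H19 had 321, 254 and 295 normalized counts in control kidneys and 270.0, 264 and 193 in FeD kidneys, so the groups overlapped. Its log2 fold change was -0.27 (SE 0.15), and it stayed between -0.35 and -0.11 with each kidney left out. The ratio of Igf2 to H19 raw counts was 0.705, 1.13 and 0.940 in control kidneys and 1.55, 1.96 and 1.49 in FeD kidneys. This ratio was higher in each FeD kidney than in each control kidney. With 3 kidneys per group an exact permutation test cannot give a two-sided p below 0.10. Within the annotated exons of H19, 3.54% of bases are those of Mir675, which is processed from it.

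Cdkn1c, Grb10 and Plagl1 restrain or tune growth, and they did not share a direction. Cdkn1c (chr7:150644255-150646955, minus strand), the maternally expressed cyclin-dependent kinase inhibitor p57, had 2016, 2038 and 2399 normalized counts in control kidneys and 1110, 1127 and 1239 in FeD kidneys. All FeD kidneys were well below the controls, and FeD kidney 2 was not set apart. The means were 2151 ± 215 and 1159 ± 70.0 (SD, n = 3 each), so FeD stood at 53.9% of control, a log2 fold change of -0.89 (SE 0.08). Leaving out each kidney gave -0.94 to -0.81, short of 2-fold each time. In podocytes, which keep Cdkn1c into adult life, 5 markers summed to 13354 to 14406 normalized counts in control and 10855 to 15271 in FeD. Podxl made up most of that sum. Among the 5, Wt1 rose from 503 to 833 (log2 fold change 0.73, edgeR adjusted p = 0.020) and the other 4 did not pass. The part of podocytes in the Cdkn1c values was not tested.

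Grb10 (chr11:11830511-11938686, minus strand) encodes an adaptor that binds and dampens the insulin and IGF1 receptors, and most tissues express its maternal copy. Its normalized counts were 1675, 1706 and 1611 in control kidneys and 2108, 2688 and 2237 in FeD kidneys. Every FeD kidney was above every control kidney, and FeD kidney 2 was the highest. The log2 fold change was 0.49 (SE 0.09), a 1.41-fold difference, and 0.41 without FeD kidney 2.

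Plagl1 (chr10:12810497-12851500, plus strand) encodes a paternally expressed zinc finger transcription factor that can arrest the cell cycle and that regulates other imprinted genes. Control kidneys had 863, 760.0 and 766 normalized counts, and FeD kidneys had 1093, 1211 and 978. The FeD kidneys were again all higher. The log2 fold change was 0.46 (SE 0.10), a 1.37-fold difference, and 0.40 without FeD kidney 2.

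Mest and Ndn complete the list. Mest (chr6:30673547-30698457, plus strand) encodes a paternally expressed protein of the hydrolase fold family that marks growing mesoderm and fat tissue. RefSeq gives it 3 promoter windows, and the second is shown, which the third repeats with a shift of 3 bases, because Mest, like Peg3, is paternally expressed and yet was lower in FeD. The stretch in mm9 is on the plus strand, begins 14253 bases downstream of the annotated gene start, holds 14 CpG sites, and carries the GC box GGGCGG in capitals, a motif found on either strand in 35.7% of all windows.

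Mest second promoter, chr6:30687800-30688049: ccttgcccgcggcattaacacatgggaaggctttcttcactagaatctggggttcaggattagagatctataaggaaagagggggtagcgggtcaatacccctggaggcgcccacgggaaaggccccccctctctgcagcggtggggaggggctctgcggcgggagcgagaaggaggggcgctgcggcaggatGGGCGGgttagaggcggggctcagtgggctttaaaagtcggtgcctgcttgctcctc

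Mest had 259, 269 and 271 normalized counts in control kidneys and 134, 168 and 220.1 in FeD kidneys. The control kidneys lay close together and above each FeD kidney. FeD stood at 65.5% of control, with a log2 fold change of -0.61 (SE 0.17) that ran from -0.82 to -0.43 with each kidney left out. Of 6 fat tissue markers, 4 fell and 1 rose by the edgeR adjusted p, against 23.3% and 22.4% of all tested genes. The part of fat tissue in the Mest values was not tested. Of Mest's exon bases, 23% overlap those of Copg2 on the opposite strand, and the strand setting of the counting is not given in the sources used here. Copg2 had 1059 ± 49.0 normalized counts in control and 1067 ± 46.8 in FeD (SD, n = 3 each; edgeR log2 fold change 0.01, adjusted p = 0.91).

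Ndn (chr7:69493163-69494814, plus strand), from the Prader-Willi region, encodes the growth suppressor necdin and is expressed from the paternal copy, most strongly in neurons. Normalized counts were 245, 238 and 263 in control kidneys and 227, 406 and 218 in FeD kidneys. FeD kidney 2, with its adrenal transcripts, was high and the other FeD kidneys lay below the controls. The log2 fold change of 0.18 (SE 0.23) changed its sign to -0.14 without FeD kidney 2.

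**Figure D3:**
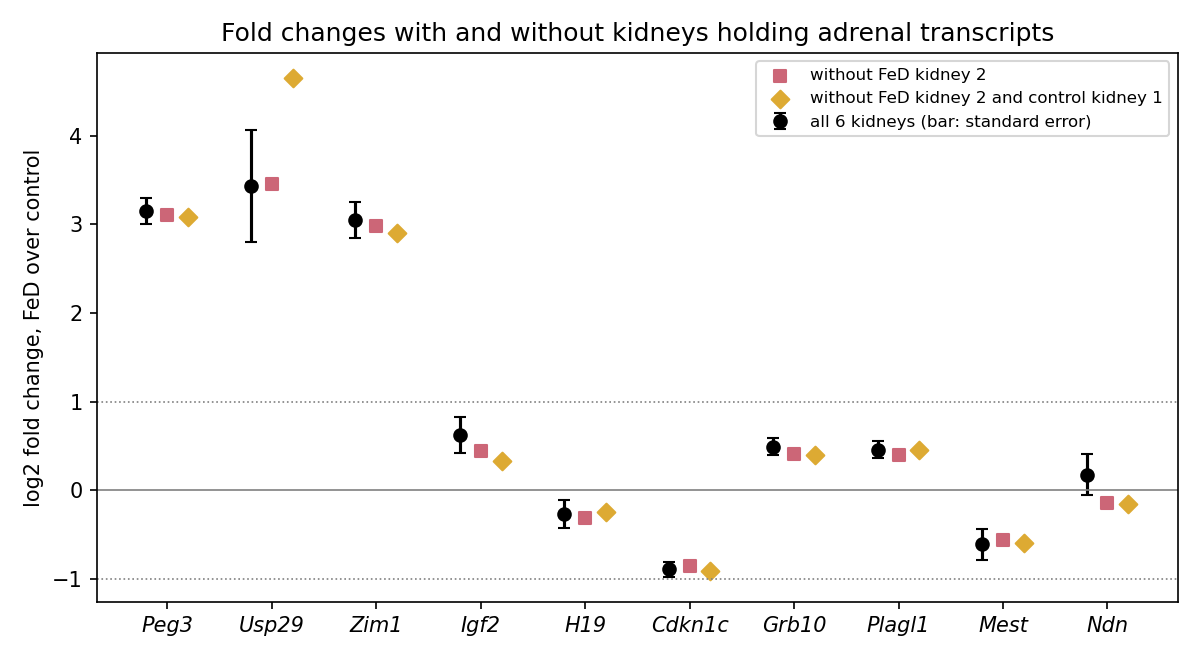
Log2 fold change, FeD over control, of each member with its standard error. Markers give the value without FeD kidney 2, and without both kidneys whose summed cortex markers were highest. Peg3, Zim1 and Usp29 keep values near 3 or above in each, Igf2 moves from 0.62 to 0.33, and Ndn turns from 0.18 to -0.14.

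Levels between genes can be compared only per length, as RPKM, which scales counts by exon length and library size. In control kidneys the order was Cdkn1c (62.4 RPKM), Grb10 (10.2), Ndn (8.44), H19 (6.85), Plagl1 (6.12), Peg3 (4.65), Mest (3.79), Zim1 (2.73), Igf2 (2.69) and Usp29 (0.0285). Among neighbors in that order, the kidneys of H19 and Plagl1 overlapped, and so did those of Zim1 and Igf2. In FeD kidneys Peg3 came first at 41.3 ± 7.99 RPKM (SD, n = 3), with Cdkn1c next at 33.6 ± 2.03, and these overlapped between kidneys. Zim1 followed at 22.6 ± 6.01 RPKM and overlapped with Grb10 at 14.3. Grb10 with Ndn (9.62), Ndn with Plagl1 (8.41), H19 (5.72) with Igf2 (4.16) and Igf2 with Mest (2.47) overlapped as well, and Usp29 stayed last at 0.328 RPKM.

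Imprinted genes outside the members went in both directions. They were listed from general knowledge of imprinting in mouse tissues, and whether each is imprinted in kidney was not tested. Of 25 other paternally expressed genes, 24 had a row and 17 were tested, of which 5 rose and 1 fell by the edgeR quasi-likelihood test with an adjusted p under 0.05, and 11 did not pass. That is 6 of 17, against 45.7% of all tested genes. Their median log2 fold change over all 6 kidneys was 0.36, against -0.0018 over all tested genes. It rested on FeD kidney 2, without which the middle value of the 17 was 0.01, that of Peg10. At 2-fold, Zdbf2, a paternally expressed zinc finger gene, was called higher alone among the 17. Its normalized counts were 25.9, 24.3 and 23.1 in control kidneys and 112.0, 201 and 109 in FeD kidneys, so each FeD kidney was higher. The log2 fold change was 2.51 (SE 0.29, edgeR adjusted p = 0.00036), and 2.19 without FeD kidney 2 (adjusted p = 0.00024). Without FeD kidney 1, 2 or 3 the number called at 2-fold was 3, 2 and 3. FeD kidney 2 stood far apart for several of these genes.

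The translation regulator Impact rose from a mean of 649 ± 26.7 to a mean of 1073 ± 167 (log2 fold change 0.72, edgeR adjusted p = 0.0015). Airn, the noncoding RNA antisense to Igf2r, rose by a log2 value of 0.75 (edgeR adjusted p = 0.0078), and the splicing factor relative Zrsr1 rose by 0.36 (adjusted p = 0.0084). The amino acid transporter Slc38a4, picked after looking at its values, rose by 0.80 (edgeR adjusted p = 0.037, and 0.076 without FeD kidney 2). Inpp5f, a phosphoinositide phosphatase, fell by 0.25 on the log2 scale (edgeR adjusted p = 0.0074). Among genes that did not pass, the most abundant were Peg13 at -0.08 (edgeR adjusted p = 0.68) and Kcnq1ot1 at -0.06 (adjusted p = 0.76).

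Dlk1, Peg10, Meg3 and Nnat were picked for their values in FeD kidney 2. Dlk1, a Notch-like protein of growing tissues and adrenal, had 87.2, 66.4 and 62.3 normalized counts in control kidneys and 84.0, 930 and 28.5 in FeD kidneys. Peg10, a retrotransposon-derived growth gene, had 97.8, 45.4 and 44.5 in control and 65.0, 937 and 59.6 in FeD. Meg3, the maternally expressed noncoding RNA beside Dlk1, had 552, 479 and 448 in control and 481, 2803 and 359 in FeD. None of these passed in the edgeR test (adjusted p = 0.12, 0.085 and 0.16), and without FeD kidney 2 the log2 fold changes went from 2.24 to -0.35 for Dlk1, from 2.46 to 0.01 for Peg10 and from 1.29 to -0.21 for Meg3. Nnat, a small membrane proteolipid, had a log2 fold change of 0.03, and -1.07 without FeD kidney 2 (edgeR adjusted p = 0.023).

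Of 26 other genes listed as maternally expressed, 21 were tested. Their parental copy in kidney was not tested. At an edgeR adjusted p under 0.05, 3 rose and 5 fell, against 45.7% of all tested genes in either direction, and 13 did not pass. The median log2 fold change of the 21 was 0.01. At 2-fold, 2 were called higher and 2 lower. Slc22a18, an organic cation transporter gene beside Cdkn1c, had 4498, 4793 and 4625 normalized counts in control kidneys and 1650, 1630 and 1147 in FeD kidneys. It fell in each FeD kidney, by 1.65 on the log2 scale (SE 0.13, edgeR adjusted p = 7.1e-05). The organic cation transporter Slc22a2, a tubular gene of the Igf2r cluster, fell from 1954 ± 106 to 826 ± 175 (log2 fold change -1.24, edgeR adjusted p = 0.00028). Summed over 6 markers, proximal tubule levels were 116009 to 125663 in control and 45958 to 52309 in FeD. Most of that drop came from Slc34a1, with means of 71821 in control and 15383 in FeD. Slc5a2 and Slc22a6 also fell by more than 2-fold, whereas Lrp2 and Cubn fell by only 0.48 and 0.45 on the log2 scale. Slc5a12 overlapped between the groups, with means of 10283 in control and 11652 in FeD. The part of these markers in the values of Slc22a18 and Slc22a2 was not tested.

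Commd1, a copper handling gene, fell by 0.44 on the log2 scale (edgeR adjusted p = 0.0038). Asb4, a ubiquitin ligase subunit, rose from 31.7 ± 4.59 to 75.8 ± 19.9 (log2 fold change 1.26, edgeR adjusted p = 0.0047). Igf2r, the receptor that clears IGF2, rose from 2389 ± 52.8 to 3103 ± 323 (log2 fold change 0.38, edgeR adjusted p = 0.0057). The fourth 2-fold call was Ascl2, a transcription factor near Cdkn1c picked after looking at its values, at 4.85 ± 0.46 against 13.8 ± 1.79 normalized counts (log2 fold change 1.47, edgeR adjusted p = 0.0097). Its adjusted p was 0.093 by DESeq2, and 0.064 by edgeR without both kidneys high in cortex markers, where 3 genes of this list were called at 2-fold. The abundant H13 (-0.11, edgeR adjusted p = 0.23) and Trappc9 (-0.16, adjusted p = 0.10) did not pass. Both lists together gave 5 calls at 2-fold among 38 tested genes, or 13.2%, against 10% of all tested genes.

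**Figure D4:**
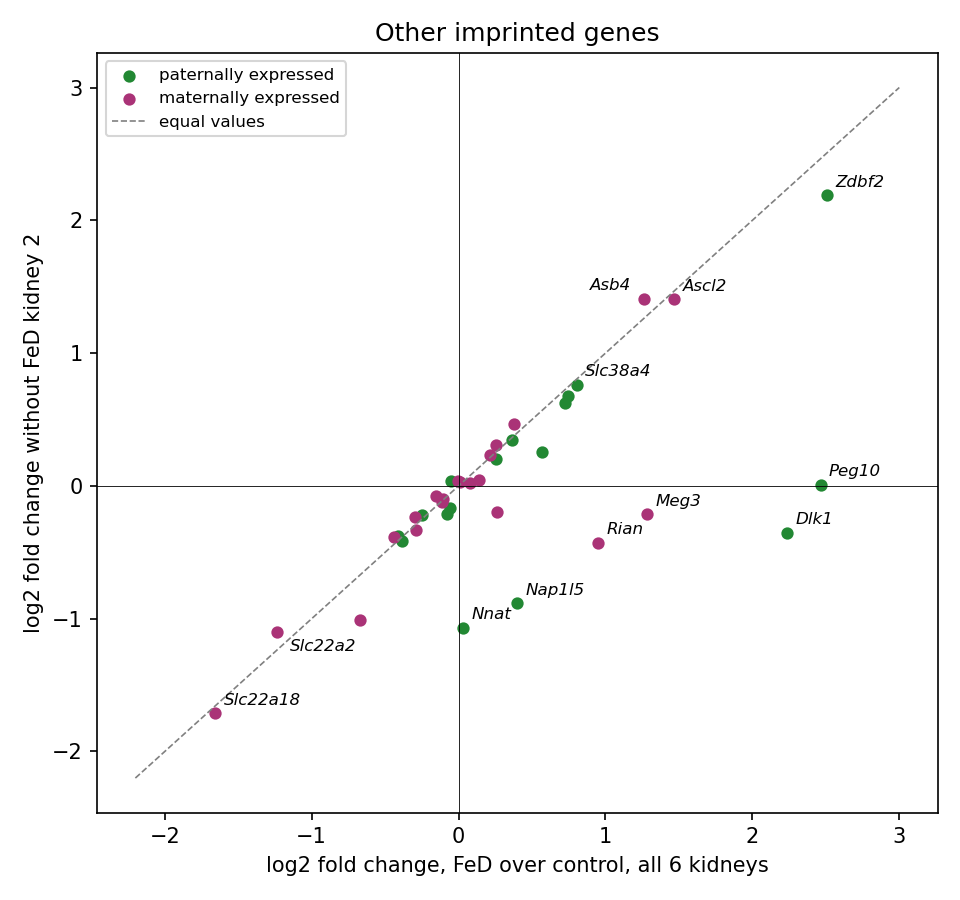
Log2 fold change, FeD over control, of the tested imprinted genes outside the members, with all 6 kidneys on the horizontal axis and without FeD kidney 2 on the vertical axis. Colors give the parental copy listed as expressed, and a dashed line marks equal values. Zdbf2 (2.51 and 2.19) and Slc22a18 stay near the line, while Dlk1 (2.24 and -0.35) and Peg10 (2.46 and 0.01) fall far below it.

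The genes that lie near any of the members were counted in the same way. Within 500000 bases of any member, 52 further genes were tested, of which 3 rose and 11 fell by edgeR at an adjusted p under 0.05, or 14 of 52 against 45.7% of all tested genes. Their median was -0.17 on the log2 scale. At 2-fold there were 4 calls of 52, against 10% of all tested genes, picked after looking at their values. Ascl2 and Slc22a18 are described above, and Tnfrsf26, a decoy death receptor near Cdkn1c, fell by 1.72 on the log2 scale (edgeR adjusted p = 0.00054). Syt8, near H19 and Igf2, fell by 1.08 on the log2 scale (edgeR adjusted p = 0.021). Near Cdkn1c, 6 of 16 tested genes fell and 1 rose, against 23.3% and 22.4% of all tested genes.

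Genes that keep imprints or silence chromatin were read next. Of 15 tested, 8 rose, 4 fell and 3 did not pass by the edgeR adjusted p, against 22.4% higher and 23.3% lower among all tested genes. Their median was 0.20 on the log2 scale. At 2-fold 1 was called, against 10%. Smchd1, a chromatin protein that silences imprinted clusters and the inactive X, rose from 1106 ± 84.6 to 1938 ± 209 (log2 fold change 0.81, edgeR adjusted p = 0.00034). Tet2, which oxidizes methylated cytosine, rose by 0.53 (adjusted p = 0.00047), Arid4b by 0.51 (0.0017), Arid4a by 0.50 (0.0031) and the imprint-binding Zfp445 by 0.35 (0.0049), all by edgeR. Trim28 (-0.09, edgeR adjusted p = 0.33) and Zfp57 (-0.68, adjusted p = 0.063), the classic imprint guardians, did not pass. Uhrf1, picked after looking at its values, recruits the maintenance methyltransferase in replicating cells and was the list's single 2-fold call, at 358 ± 66.5 normalized counts in control and 164 ± 56.5 in FeD (log2 fold change -1.13, edgeR adjusted p = 0.0068). That call was lost, with the list's count at 0, without control kidney 1 or without FeD kidney 3.

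Fetal growth genes that are not imprinted also went both ways. Of 11 tested, 5 rose, 1 fell and 5 did not pass by the edgeR adjusted p, against 45.7% of all tested genes that passed, and 3 were called at 2-fold, against 10%. Igf2bp2, which binds Igf2 messenger RNA, rose from 192 ± 36.6 to 548 ± 87.5 (log2 fold change 1.50, edgeR adjusted p = 0.00028). Plag1, a zinc finger activator of Igf2 related to Plagl1, rose from 36.2 ± 5.90 to 108 ± 35.7 (log2 fold change 1.57, edgeR adjusted p = 0.0023). Gpc3, a heparan sulfate proteoglycan that limits growth, rose by 0.56 (edgeR adjusted p = 0.0027), and Igf2bp3 by 0.80 (adjusted p = 0.0081). The growth factor midkine, Mdk, fell by 1.42 on the log2 scale (edgeR adjusted p = 0.00018). Ezh2 (-0.09, edgeR adjusted p = 0.44) and Igf2bp1 (0.59, adjusted p = 0.13) did not pass.

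IGF2 and GRB10 act through the IGF axis. Of its 13 tested genes, 5 rose, 7 fell and 1 did not pass by the edgeR adjusted p, against 45.7% of all tested genes that passed. At 2-fold 2 were called higher and 4 lower, against 4.34% and 5.69%, and the median log2 fold change was -0.46. Like the other gene lists, this one was chosen with earlier results of these data known, so its counts are a description. Igf1, the postnatal growth factor, fell from 2225 ± 296 to 465 ± 110 normalized counts (log2 fold change -2.25, edgeR adjusted p = 5.9e-05). The receptors Igf1r and Insr rose by 0.61 (edgeR adjusted p = 0.00019) and 0.70 (adjusted p = 0.00010). Irs2, which relays their signal, rose by 1.48 (edgeR adjusted p = 0.00057), Igfbp4, which binds IGFs, fell by 0.68 on the log2 scale (adjusted p = 0.00022), and Igfbp3 had a value of 0.28 (adjusted p = 0.10).

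Among 5 tested inhibitors of cyclin-dependent kinases other than Cdkn1c, 2 rose and 1 fell by the edgeR adjusted p, against 22.4% and 23.3% of all tested genes. Cdkn1b, the p27 relative of Cdkn1c, rose from 1234 ± 36.5 to 1780.2 ± 50.9 (log2 fold change 0.53, edgeR adjusted p = 0.00026), and the p21 gene Cdkn1a rose by 2.84. Cdkn2c, the p18 inhibitor, fell by 1.67 on the log2 scale (edgeR adjusted p = 6.8e-05). Cdkn2b (0.02) and Cdkn2d (0.16) did not pass, so the lower Cdkn1c level was not shared by its closest relatives Cdkn1a and Cdkn1b.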

How the data were processed

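The authors isolated total RNA, prepared TruSeq libraries from polyadenylated RNA, trimmed reads with Trimmomatic, aligned them to mm9 with TopHat2 2.0.11 and counted reads per gene with HTSeq, after base calling in CASAVA 1.8.2, according to the submitters' processing notes. The deposited values are raw counts for 24422 symbols. The annotation, counting mode and strand setting are not given in the sources used here.

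Counts were filtered with filterByExpr (15145 genes left), normalized by TMM and compared with the quasi-likelihood test of edgeR 4.0.16 in R 4.3.3, with Benjamini-Hochberg adjustment over all tested genes. The labels' postnatal day and group were used. The members, gene lists and motifs were chosen with earlier results of these data known. Named genes were the 10 members, the rest of the Peg3 domain and neighborhood, up to 5 genes with the smallest passing adjusted p and up to 2 abundant genes that did not pass from each list, and the 5 genes most correlated with Peg3. Alternatives were DESeq2 1.42.0, its size factors, library size alone, other filters on low counts, no fold threshold, the replicate number as a block and each kidney left out. Leaving out both kidneys high in summed cortex markers was added after seeing the data. Exon lengths and positions came from GENCODE on NCBIM37 (mm9), and promoters from RefSeq, in which 8 of the 10 members matched. Intervals and the floor of 3 counts cover counting error only. The test was tried on simulated counts.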

Additional observations from a re-analysis of the deposited data

How the results depend on the processing

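Direction held for 9 of the 10 members in each of the alternatives that tested them, the exception being Ndn (-0.16 to 0.35). With at least 10 counts required in every sample, Usp29 was not tested and 2 members were called at 2-fold. The log2 fold change lay between 3.06 and 3.32 for Peg3 and between 2.90 and 3.27 for Zim1 in those alternatives. With no fold threshold the calls were 6924 over all genes (1519 with it), 8 members, 6 paternally and 8 maternally expressed genes, 12 imprint maintenance genes, 6 fetal growth genes, 12 IGF axis genes and 14 neighbors by position. With no filter on low counts, 7 neighbors were called instead of 4. Leaving out both kidneys high in summed cortex markers left 0 imprint maintenance genes called at 2-fold, and Usp29 had a log2 fold change of 4.65. With each kidney left out, the calls ranged from 1431 to 1707 over all genes, 3 to 3 for members, 1 to 3 for paternally expressed genes, 4 to 5 for maternally expressed genes, 0 to 1 for imprint maintenance, 3 to 3 for fetal growth, 5 to 6 for the IGF axis, 2 to 2 for cyclin-dependent kinase inhibitors and 4 to 6 for neighbors, and the log2 fold change of Usp29 from 2.83 to 4.63. The causes of these shifts were not tested, beyond the fewer samples or the larger set of genes tested.

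The replicate numbers 1 to 3 occur in both groups without any shared origin. Correlations of same-numbered kidneys' deviations were -0.162, 9.57e-05 and -0.0348, so the numbers do not pair the kidneys. With the replicate block, 1534 genes, 3 members and 5 neighbors were called. Counts as low as those of Usp29 limit its fold change to a wide interval.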

Other observations

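The 5 genes whose log2 CPM followed Peg3 most closely over the 6 kidneys, among 12932 genes that averaged 50 or more normalized counts, came from other chromosomes, and all 5 were higher in FeD. Wdr26, a ubiquitin ligase subunit, had a Pearson correlation of 0.9997 with Peg3 and went from 3275 ± 30.2 to 5372 ± 296 normalized counts (SD, n = 3 each). Acsl4, which activates long polyunsaturated fatty acids, had a correlation of 0.9995 and a log2 fold change of 1.07. Nsg2, a neuronal endosomal protein, had a correlation of 0.9992 and a log2 fold change of 1.68. The transcription factor Klf4 (0.9991, log2 fold change 1.32) and the elongation factor Tcea1 (0.9990, log2 fold change 0.35) completed the group. These correlations are descriptions over 6 kidneys of both diets, which share the gap between the groups.

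Outside Zim1, members ranged in their Pearson correlation with Peg3 over the same 6 kidneys from 0.951 for Usp29, 0.933 for Grb10 and 0.893 for Plagl1, through 0.724 for Igf2, 0.259 for Ndn, -0.633 for H19 and -0.783 for Mest, to -0.960 for Cdkn1c.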
